A study of Mus musculus with 14 samples.

Results

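The whole population of labeled hindbrain cells was compared between *Atoh1* S193A/- and control embryos at E14.5, as 1 sum of UMIs per library over every cell that passed the filter. All 6 E14.5 libraries of the 14 in the series were used, 3 per genotype. They were chosen by their labels, with no choice of cell type. Cells with 1000 or more genes and a mitochondrial share below 10% numbered 24978 in control and 24718 in *Atoh1* S193A/- libraries, 49696 in all, out of 150188 barcodes in the series.

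Control embryos were *Atoh1* Cre/+; Rosa lsl-tdTomato/+, and mutant embryos were *Atoh1* Cre/S193A; Rosa lsl-tdTomato/+, on the C57BL/6J strain. Both genotypes therefore carried Cre in place of the *Atoh1* coding region on 1 allele, and they differed in the other allele, which was wild type or had serine-193 changed to alanine. Each library came from the whole hindbrain of 1 embryo, each mutant was taken with a littermate control, and libraries that share a replicate number were treated as littermates. Live tdTomato-positive cells were sorted by FACS, which selects cells in which Cre had been active under the *Atoh1* locus, or their descendants. The sums also held RNA of red blood cells, microglia and macrophages, as given below, so they are not limited to this lineage. The sort says nothing of the number of labeled cells per embryo.

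The product of *Atoh1* is a proneural bHLH factor of the rhombic lip, the dorsal edge of the hindbrain next to the roof plate. Progenitors there divide while Notch signaling keeps *Hes* genes on, and they leave the cell cycle and migrate away once proneural factors prevail. The lip gives rise to granule cells of the cerebellum, neurons of the deep cerebellar nuclei, pontine neurons and other brainstem neurons. The roof plate beside it secretes Wnt and BMP ligands and forms the epithelium of the choroid plexus.

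The median cell held more UMIs in every mutant library than in any control. The cells kept held 116937816 to 174406996 UMIs per control library and 154491598 to 186727976 per *Atoh1* S193A/- library, and the median cell had 16959 to 17593 and 17734 to 20831 UMIs, respectively. With every cell thinned to 5000 UMIs, 2255 genes were called between genotypes in place of 2649. Between 9 and 26 barcodes were common to any 2 libraries, at most 0.313% of the cells of a library. By the file headers, Cell Ranger was at version 3.1.0 in controls 1 and 2 and at 5.0.1 in the other 4 libraries, so only pair 3 has the same software version in both genotypes. *Xist* was at 1105 CPM (UMIs of a gene scaled to a common library total) in control 1 and 0.0777 CPM in its littermate, whereas both libraries of pair 2 were below 1 CPM and both of pair 3 above 1000 CPM. Pair 1 thus differed in sex as well as genotype. *Atoh1* S193A/- library 2 stood apart in genes of red blood cells, microglia and macrophages. Its red blood cell genes summed to 4.82 CPM against 101.6 to 659 in the other libraries, and its microglia and macrophage genes to 0.702 CPM against 7.62 to 30.4.

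The level of *Atoh1* itself (chr6:64729125-64731245, GRCm38) was higher in the mutant libraries. Control libraries 1, 2 and 3 held 91.4, 50.01 and 49.9 CPM and *Atoh1* S193A/- libraries 1, 2 and 3 held 112, 79.0 and 89.2 CPM. The mutant was above its littermate in every pair, but the genotypes overlapped, since control 1 was above mutants 2 and 3. The log2 change was 0.60 ± 0.11 (SE; edgeR quasi-likelihood test with the pair as a block, adjusted p = 0.0224). The call was lost with cells limited to less than 5% mitochondrial UMIs (0.48, edgeR adjusted p = 0.0628), without pair 2 (0.57, edgeR adjusted p = 0.0887), without dividing cells (0.65, edgeR adjusted p = 0.151) and without the pair in the model (0.55, edgeR adjusted p = 0.322). The S193A allele is counted like the wild-type allele by a 3′ tag, so this level does not check the labels. WPRE, the sequence that tags the tdTomato transcript, averaged 300 CPM in control libraries (SD 41.2, n = 3) and 315 CPM in mutants (SD 92.7, n = 3), a log2 change of 0.04 ± 0.10 (SE; edgeR adjusted p = 0.782).

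**Figure D1:**
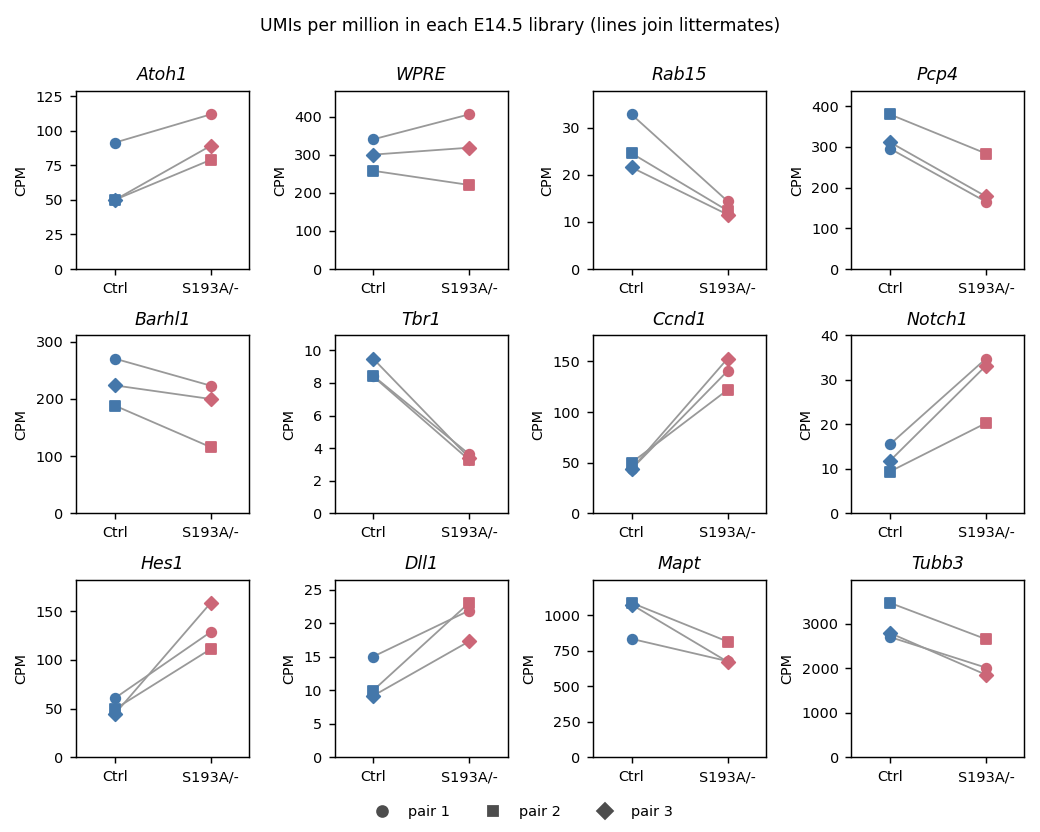
CPM of 12 genes (y axes, from 0) in each E14.5 library, with control in blue, *Atoh1* S193A/- in red, a marker for each pair and a line joining littermates. *Rab15*, *Pcp4*, *Tbr1*, *Mapt* and *Tubb3* were lower and *Ccnd1*, *Notch1*, *Hes1* and *Dll1* higher in all 3 mutant libraries than in any control, whereas *Atoh1*, WPRE and *Barhl1* overlapped.

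Among the gene lists, most genes of dividing progenitors and of the rhombic lip and roof plate were higher in the *Atoh1* S193A/- sums. Most genes of neuron differentiation were lower. Of 13544 genes tested, 2649 (19.6%) were called at an adjusted p below 0.05 with an absolute log2 change over 0.25. Of these, 1662 (12.3%) were higher and 987 (7.29%) were lower. The rises were larger than the falls: 254 genes rose more than 2-fold and 10 fell more than 2-fold, and the median log2 change was 0.58 among the genes called higher and -0.35 among those called lower. The genotypes did not overlap in 1666 of the called genes, and over all genes tested 13.2% were higher and 11.8% lower in the mutant without overlap. Without the pair in the model 4 genes (0.0295%) were called, *Ccnd1*, *Ildr2* and *Rfx4* (0.0222%) as higher and *Tbr1* (0.00738%) as lower (edgeR adjusted p = 0.0364 for each), and 2543 had an unadjusted p below 0.05. With total UMIs as the library size in place of TMM factors, 1962 genes were called higher and 692 lower, so that the share of higher calls went from 62.7 to 73.9%, and the median of all genes moved from 0.0066 to 0.051. A sum over mixed cells cannot tell fewer cells of a type from less RNA in each of them.

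**Figure D2:**
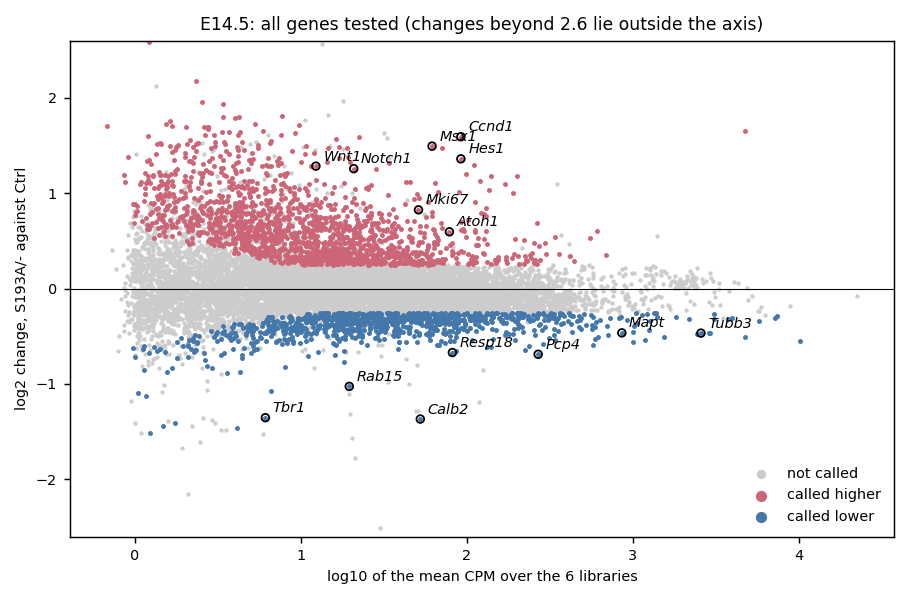
Log2 change between *Atoh1* S193A/- and control at E14.5 (y axis) against the log10 of the mean CPM over the 6 libraries (x axis) for each gene tested. Of the 13544 points, 1662 called higher are red and 987 called lower are blue, with some named genes circled, and the axis stops at a change of 2.6 in either direction.

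The software version was examined because it differed within pairs 1 and 2. A model with version beside pair and genotype, in which the genotype term rests on pair 3 alone, called 1250 genes (9.23%), with 892 higher (6.59%) and 358 lower (2.64%), and 1031 of them were among the 2649. Of the 58 genes named by rule 39 were called in it, and *Dll1*, *Pla2g7*, *Calb2*, *Crtac1*, *Tspan17*, *Crlf2*, *Ckmt1*, *Vstm2l*, *Faim2*, *Ebf1*, *Zic5*, *Robo2*, *Slc17a8*, *Slc18a3* and *Pmaip1* lost their calls. The version term itself was called for 0 genes by edgeR at an adjusted p below 0.05, with 580 at an unadjusted p below 0.05. This term compares the genotype difference of pairs 1 and 2 with that of pair 3. It cannot be told apart from the sex difference of pair 1 or other differences between the pairs. Among the 4 libraries of version 5.0.1, without the pair, 0 genes were called by edgeR, with 636 at an unadjusted p below 0.05. DESeq2 was not run in either of these designs. Counts of list members given below for the version model stand against its own shares of all genes, 6.59% higher and 2.64% lower. They too rest on pair 3 alone.

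Of the 16 genes in the list of *Atoh1* and its described targets, 3 rose and 4 fell, against 12.3% and 7.29% of all genes tested, with a median log2 change of -0.24 against 0.0066 for all genes. The version model called 1 higher and 4 lower. The list includes *Rab15*, *Pcp4*, *Barhl1* and *Nhlh1*, which the study picked on these libraries, so it is not independent evidence of a direction. *Rab15* (chr12:76797960-76822908), a small GTPase of recycling endosomes, was at 32.9, 24.6 and 21.6 CPM in control and 14.4, 12.4 and 11.6 CPM in mutant libraries 1 to 3. Every mutant library was below every control, and the level fell 2.04-fold (log2 change -1.03 ± 0.07 SE, edgeR adjusted p = 0.00548). *Pcp4* (chr16:96467606-96525793), which modulates calmodulin, was at 296, 380 and 312 CPM in control and 165, 284 and 178 CPM in mutant libraries. Again the genotypes did not overlap, and the log2 change was -0.69 ± 0.09 (SE, edgeR adjusted p = 0.0126). *Lhx2*, a LIM homeodomain factor, fell by 0.62 ± 0.06 (SE, edgeR adjusted p = 0.0073) on the log2 scale, although its control libraries (114 to 231 CPM) and mutant libraries (80.4 to 154 CPM) overlapped.

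*Barhl1* and *Nhlh1*, transcription factors of the rhombic lip lineage, did not pass the edgeR test over all cells kept. *Barhl1* was at 270, 188 and 224 CPM in control and 223, 116 and 200 CPM in mutant libraries, lower in each pair, with a log2 change of -0.38 ± 0.11 (SE, edgeR adjusted p = 0.0647). DESeq2 with the pairs called *Barhl1* lower, as did edgeR with cells limited to less than 5% mitochondrial UMIs (-0.51, edgeR adjusted p = 0.0327). It was not called with version in the model (-0.16, edgeR adjusted p = 0.603). *Nhlh1* changed by -0.21 ± 0.11 (SE, edgeR adjusted p = 0.19) and was lower in 2 of 3 pairs. The study reported both genes as lower within states of pontine cells, by a test over cells, and these sums do not isolate those states. The rises in the list were those of *Atoh1*, of *Gli2*, an effector of Sonic hedgehog signaling (log2 change 0.60), and of *Dll1*, a Notch ligand (0.89).

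The promoters of 3 genes of this list are shown because each holds CAGCTG, an E-box of the kind that *Atoh1* and its partners bind, and because the genes went different ways. *Rab15* fell, *Dll1* rose, and *Barhl1* was lower in each pair but not called by edgeR over all cells kept. Sequences are the 250 bases before a RefSeq start site in GRCm38.p6, on the strand of the gene, with CAGCTG in capitals. All 3 genes lie on the minus strand.
*Rab15* promoter, chr12:76822525-76822774: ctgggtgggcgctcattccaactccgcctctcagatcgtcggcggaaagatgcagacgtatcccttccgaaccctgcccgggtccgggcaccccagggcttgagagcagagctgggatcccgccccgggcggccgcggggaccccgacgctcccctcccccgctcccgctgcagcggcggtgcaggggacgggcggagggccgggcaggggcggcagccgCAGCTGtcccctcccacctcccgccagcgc
*Dll1* promoter, chr17:15376933-15377182: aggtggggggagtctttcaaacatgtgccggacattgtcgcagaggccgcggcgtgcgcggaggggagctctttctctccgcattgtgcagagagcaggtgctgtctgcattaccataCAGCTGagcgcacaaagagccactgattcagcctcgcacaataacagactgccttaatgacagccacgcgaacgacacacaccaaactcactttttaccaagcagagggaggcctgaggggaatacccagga
*Barhl1* promoter, chr2:28916669-28916918: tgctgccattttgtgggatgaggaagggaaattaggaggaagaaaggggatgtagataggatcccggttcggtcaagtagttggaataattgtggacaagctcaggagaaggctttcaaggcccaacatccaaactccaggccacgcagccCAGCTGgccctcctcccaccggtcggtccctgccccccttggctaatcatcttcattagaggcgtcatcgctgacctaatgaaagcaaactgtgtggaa
The motif begins 30, 132 and 99 bases before the start site of the promoter shown, respectively. *Rab15* has 4 such promoters, and *Dll1* and *Barhl1* have 2 each. The *Rab15* promoter shown lies inside the gene span given above. The other *Barhl1* promoter also holds the motif, 15 bases before its start site. The motif reads the same on both strands, and 13.0% of the 32851 promoters of this length hold it. By gene, 5 of the 16 members of the list had it in at least 1 promoter, against 14.7% of all genes, 13.5% of the genes called higher and 17.8% of those called lower. A match of these letters is not a bound site.

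Genes of the cell cycle moved together. Of 31 S phase genes 29 rose and 0 fell, and of 34 genes of G2 and mitosis 34 rose, against 12.3% of all genes tested. The median log2 change was 0.58 in the S phase list and 0.71 in the mitosis list. With version in the model 22 and 28 members were called higher. *Mcm2*, a subunit of the replicative helicase, was at 17.6, 14.3 and 18.4 CPM in control and 29.1, 22.3 and 30.4 CPM in mutant libraries, without overlap, and rose by 0.70 ± 0.05 (SE, edgeR adjusted p = 0.00548) on the log2 scale. *Mcm3* of the same helicase rose by 0.79 ± 0.05 (SE). *Slbp*, which binds histone mRNA, changed by 0.23 and was not called.

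*Mki67*, the Ki-67 antigen of dividing cells, was at 26.1, 29.4 and 54.8 CPM in control and 51.8, 45.6 and 99.3 CPM in mutant libraries 1 to 3. Control 3 was above mutants 1 and 2, so the genotypes overlapped, whereas each mutant was above its own littermate. The log2 change was 0.83 ± 0.07 (SE, edgeR adjusted p = 0.00703). *Bub1b*, of the spindle checkpoint, and *Cenpf*, a kinetochore protein, rose by 0.83 and 0.77, respectively, and for both control 3 was above mutant 2.

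Among cyclins and cell cycle inhibitors 11 of 21 rose and 2 fell, against 12.3% and 7.29% of all genes, with a median of 0.33. In the version model 4 rose and 0 fell, against 6.59% and 2.64% of all genes in that model. *Ccnd1* (chr7:144929931-144939925), the G1 cyclin D1, was at 43.6, 49.96 and 43.8 CPM in control and 141, 122 and 153 CPM in mutant libraries. This 3.02-fold rise (log2 change 1.59 ± 0.11 SE, edgeR adjusted p = 0.00597) was the largest of the list, and the genotypes were far apart. *Cdk2*, the kinase of S phase entry, rose by 0.85 ± 0.09 (SE). The inhibitors *Cdkn1c* and *Cdkn2d*, which accompany cell cycle exit, fell by 0.27 and 0.28 on the log2 scale, whereas *Cdkn1b* changed by 0.15 and was not called (edgeR adjusted p = 0.137).

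The share of cells with division genes was measured in the same libraries, after each cell had been thinned to 5000 UMIs. Cells with 2 or more of *Mki67*, *Top2a*, *Cdk1*, *Cenpf*, *Birc5* and *Nusap1* made up 8.99, 6.33 and 11.2% of cells in control and 17.2, 10.3 and 19.8% in mutant libraries. The share was higher in the mutant of every pair, by 6.95 percentage points on average (SD of the pair differences 2.57, n = 3), but mutant 2 was below control 3. A two-sided exact permutation test of 3 against 3 gave p = 0.2, where 0.1 is the smallest it can give, and the exact sign-flip test over pairs gave its smallest value of 0.25. Without thinning the shares were 12.3 ± 2.92% and 22.1 ± 6.78% (SD, n = 3). In thinned cells with 3 or more *Mapt* UMIs, which should lack division genes, the share was 0.969, 0.835 and 1.13% in control and 1.84, 1.17 and 2.15% in mutant libraries. These shares were below every share of the whole libraries, and they too were higher in each mutant than in any control. The labels call the sorted cells neurons, and these shares show that dividing cells were sorted as well.

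**Figure D3:**
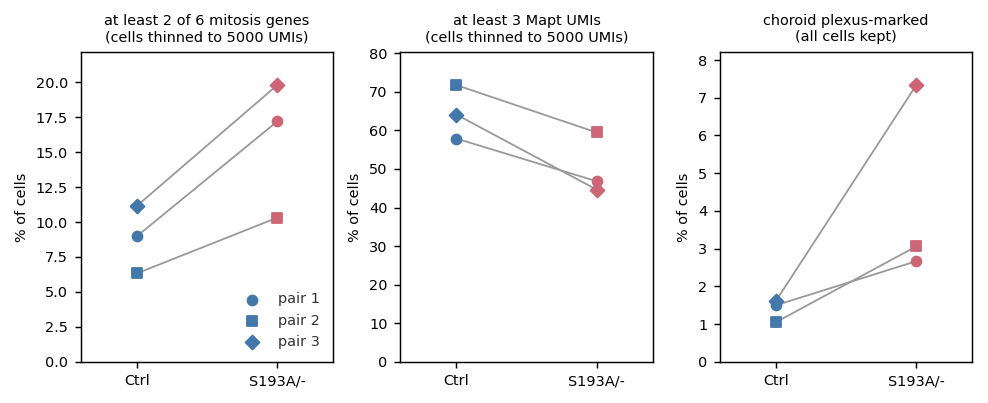
Percent of cells (y axes, from 0) with at least 2 of 6 mitosis genes, with at least 3 *Mapt* UMIs, and with choroid plexus markers in each library, joined within pairs. Mutant libraries had more cells with mitosis genes or choroid plexus markers and fewer with *Mapt* than their littermates in all 3 pairs.

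Of 23 genes of neural progenitors 17 were called higher and 0 lower, against 12.3% and 7.29% of all genes, and the median log2 change was 0.79. The version model called 15 higher. *Pax3*, a dorsal neural tube factor, was at 52.2, 26.1 and 44.7 CPM in control and 94.8, 51.7 and 81.3 CPM in mutant libraries. Pair 2 was the lowest in both genotypes, so that the genotypes overlapped by a narrow margin, and the log2 change was 0.90 ± 0.05 (SE, edgeR adjusted p = 0.00548). *Sox2* and *Sox9*, factors that maintain progenitors, rose by 1.01 and 1.11 without overlap. *Pax7*, *Ptn*, *Ddah1* and *Sox21* had changes from -0.23 to -0.07 and were not called.

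In the Notch pathway 10 of 24 genes rose and 2 fell, against 12.3% and 7.29% of all genes, with a median of 0.27. In the version model 6 rose and 1 fell. *Notch1*, *Dll1*, *Hes1* and *Hes5* of this list were named by the study from these libraries. Among receptors, *Notch1* (chr2:26457903-26516663) was at 15.5, 9.38 and 11.8 CPM in control and 34.8, 20.3 and 33.2 CPM in mutant libraries. The genotypes did not overlap, and *Notch1* rose 2.39-fold (log2 change 1.26 ± 0.09 SE, edgeR adjusted p = 0.00548). *Notch2* rose by 1.06 ± 0.12 (SE, edgeR adjusted p = 0.00925) and *Notch3* by 0.72.

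The ligand *Dll1* (chr17:15367354-15376872) was at 15.0, 9.97 and 9.17 CPM in control and 21.9, 23.0 and 17.3 CPM in mutant libraries, again without overlap, and rose by 0.89 ± 0.13 (SE, edgeR adjusted p = 0.0154). With version in the model its log2 change was 0.91 (edgeR adjusted p = 0.12). *Lfng*, a glycosyltransferase that modifies Notch receptors, rose by 1.13, whereas *Rfng* of the same family fell by 0.30 on the log2 scale. *Dner*, a Notch ligand of neurons, fell by 0.33 on that scale.

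*Hes1* and *Hes5*, target genes of the pathway that the study had named, were higher as well. *Hes1* (chr16:30064384-30067796), a repressor of proneural genes, was at 60.7, 49.5 and 44.4 CPM in control and 129, 111 and 158 CPM in mutant libraries, a 2.57-fold rise (log2 change 1.36 ± 0.17 SE, edgeR adjusted p = 0.0153). *Hes5* was at 140, 52.5 and 69.5 CPM in control and 266, 104 and 214 CPM in mutant libraries. Control 1 was above mutant 2, and the log2 change was 1.18 ± 0.16 (SE, edgeR adjusted p = 0.0167). *Hey1* changed by 0.24 and was not called (edgeR adjusted p = 0.142). The promoter of *Hes5* is shown because it holds TGGGAA, the core recognized by RBPJ, the DNA-binding partner of activated Notch, on each strand. The capitals mark TGGGAA and its complement TTCCCA, on the plus strand.
*Hes5* promoter, chr4:154960673-154960922: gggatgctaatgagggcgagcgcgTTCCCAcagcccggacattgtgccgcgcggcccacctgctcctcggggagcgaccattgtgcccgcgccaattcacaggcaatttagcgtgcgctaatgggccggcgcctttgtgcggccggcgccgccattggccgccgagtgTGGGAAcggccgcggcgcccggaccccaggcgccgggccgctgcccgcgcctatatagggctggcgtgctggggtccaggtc
The matches begin 226 and 82 bases before the RefSeq start site. Over both strands 21.6% of all promoters hold the motif. By gene, 4 of the 20 Notch list genes with a RefSeq promoter had it in at least 1 promoter, against 24.1% of all genes. An antisense gene, *Gm20421*, overlaps the start of *Hes5*, and whether counting used the strand is not given in the sources used here.

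In the Sonic hedgehog pathway 7 of 12 genes rose and 0 fell, against 12.3% and 7.29% of all genes, with a median of 0.29. With version in the model 2 rose, against 6.59% of all genes. *Cdon*, a co-receptor, was at 18.3, 16.9 and 12.9 CPM in control and 32.0, 35.9 and 31.3 CPM in mutant libraries, and rose by 1.06 ± 0.10 (SE, edgeR adjusted p = 0.0073). *Gli3*, mainly a repressor of the pathway, rose by 0.94 ± 0.08 (SE, edgeR adjusted p = 0.00623). *Ptch1*, a receptor and a target of the pathway, rose by 0.27.

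Signals of the rhombic lip and roof plate had the highest median of the 18 lists, 0.88, with 16 of 23 genes called higher and 1 lower, against 12.3% and 7.29% of all genes. The version model called 15 higher and 0 lower. *Wnt1* (chr15:98789857-98793837) was at 8.14, 8.92 and 4.77 CPM in control and 18.1, 20.3 and 13.6 CPM in mutant libraries. The genotypes did not overlap, and *Wnt1* rose 2.44-fold (log2 change 1.28 ± 0.09 SE, edgeR adjusted p = 0.00548). *Lef1*, a nuclear effector of Wnt signaling, rose by 0.84 ± 0.06 (SE, edgeR adjusted p = 0.00548). *Msx1* (chr5:37820485-37824583), a homeobox gene of the roof plate that BMPs induce, was at 39.0, 38.2 and 22.0 CPM in control and 86.0, 91.3 and 94.0 CPM in mutant libraries. It rose by 1.49 ± 0.22 (SE, edgeR adjusted p = 0.0224). *Wnt3a*, *Rspo1* and *Gdf10* rose by 1.31, 1.29 and 1.32, whereas *Id4* fell by 0.28 on the log2 scale.

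**Figure D4:**
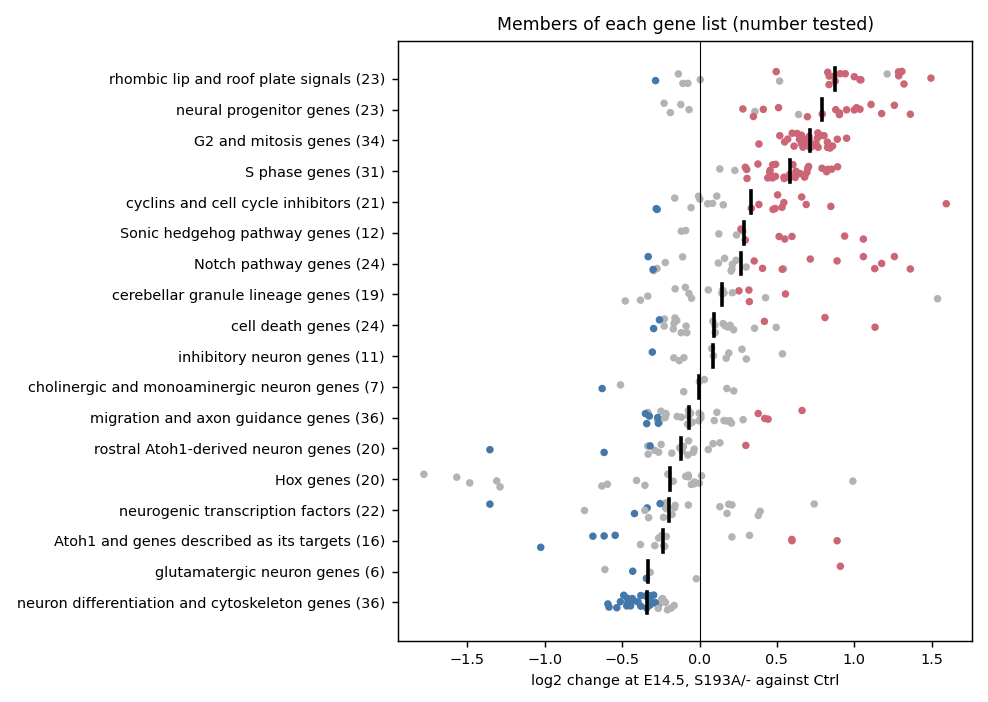
Log2 change of each member tested (points) of the 18 gene lists (rows, with the number tested), red where called higher, blue where called lower and grey where not called, and the list's median as a black bar. The rhombic lip and roof plate list has the highest median, 0.88, and the neuron differentiation list the lowest, -0.34.

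Neuronal genes were lower. Of 36 genes of neuron differentiation and the cytoskeleton 28 fell and 0 rose, against 7.29% of all genes called lower, and the median log2 change was -0.34. With version in the model 25 fell. *Mapt*, which encodes tau, was at 834, 1087 and 1074 CPM in control and 677, 815 and 673 CPM in mutant libraries. The highest mutant was just below the lowest control, and the log2 change was -0.46 ± 0.08 (SE, edgeR adjusted p = 0.0174). *Tubb3*, the neuronal tubulin, fell by 0.47 ± 0.06 (SE, edgeR adjusted p = 0.0106) on the log2 scale, and *Snap25*, of synaptic vesicle fusion, fell by 0.40 ± 0.05 (SE, edgeR adjusted p = 0.011). *Map2* of the same list changed by -0.16 and was not called (edgeR adjusted p = 0.207). Cells with 3 or more *Mapt* UMIs after thinning made up 57.9, 71.8 and 64.1% of control and 46.8, 59.5 and 44.6% of mutant libraries, lower in each pair (two-sided exact permutation p = 0.2).

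Of 22 neurogenic transcription factors 4 fell and 0 rose, against 7.29% and 12.3% of all genes, with a median of -0.20. Once version was added, 3 fell. *Tbr1* (chr2:61802930-61814114), a T-box factor of glutamatergic neurons and of the early deep cerebellar nuclei, was at 8.45, 8.40 and 9.50 CPM in control and 3.63, 3.27 and 3.41 CPM in mutant libraries. The values were tight within each genotype, and *Tbr1* fell 2.56-fold (log2 change -1.35 ± 0.09 SE, edgeR adjusted p = 0.00548). *Ebf1*, which acts in differentiating neurons, fell by 0.42 ± 0.06 (SE, edgeR adjusted p = 0.0126) on the log2 scale, but its libraries overlapped, from 441 to 768 CPM in control and from 314 to 632 CPM in mutants. *Neurod1* and *Neurog1* changed by -0.16 and 0.74 and were not called.

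The lists of neuron types were mixed. Among genes of rostral *Atoh1*-derived neurons 3 of 20 fell (*Tbr1*, *Lhx2* and *Zfhx3*) and 1 rose (*Olig2*), against 7.29% and 12.3% of all genes, with a median of -0.12. The version model called 2 lower and 0 higher. In the granule lineage list 4 of 19 rose and 0 fell, with a median of 0.15, and with version in the model 0 were called by edgeR. *Zic5*, a zinc finger factor of granule cell precursors, rose by 0.32 ± 0.04 (SE, edgeR adjusted p = 0.012) with overlap between genotypes, and it was not called with version in the model (log2 change 0.27, edgeR adjusted p = 0.111).

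Transmitter genes moved in both directions, and 1 of 6 glutamatergic genes rose and 2 fell, against 12.3% and 7.29% of all genes. The version model called 0 higher and 1 lower. The vesicular glutamate transporter *Slc17a6* fell by 0.34 ± 0.06 (SE, edgeR adjusted p = 0.0175) on the log2 scale, whereas *Slc17a8* of the same family, at 2.86 to 2.93 CPM in control and 4.66 to 6.69 CPM in mutant libraries, rose by 0.91 ± 0.13 (SE, edgeR adjusted p = 0.0131). Of 11 inhibitory genes 1 fell and 0 rose, against 7.29% and 12.3% of all genes, whereas the version model called 0 lower and 1 higher. Of 7 cholinergic and monoaminergic genes only *Slc18a3*, the vesicular acetylcholine transporter, was called, against 7.29% of all genes called lower. Its level was low, at 2.21 to 3.13 CPM in control and 1.58 to 1.87 CPM in mutant libraries. It fell by 0.63 ± 0.17 (SE, edgeR adjusted p = 0.043) on the log2 scale. The call was lost with cells limited to less than 5% mitochondrial UMIs (-0.43, edgeR adjusted p = 0.25). The median changes of the inhibitory and cholinergic lists were 0.09 and near 0.

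Of 36 genes of migration and axon guidance 4 rose and 5 fell, against 12.3% and 7.29% of all genes, with a median of -0.06, so the share of rises was near that of all genes. When version was added, 2 rose and 4 fell, against 6.59% and 2.64% of all genes in that model. *Slit2*, a repellent ligand, was at 41.6, 42.8 and 36.9 CPM in control and 60.0, 60.7 and 71.5 CPM in mutant libraries, and rose by 0.66 ± 0.10 (SE, edgeR adjusted p = 0.0154). Its receptor *Robo2* fell by 0.27 ± 0.04 (SE, edgeR adjusted p = 0.0153) on the log2 scale, also without overlap. *Cxcr4*, a chemokine receptor of migrating precursors, rose by 0.42, and *Dcx*, a microtubule protein of migrating neurons, fell by 0.34 on the log2 scale.

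In the cell death list 3 of 24 genes rose and 2 fell, with a median of 0.09, which is near the shares of all genes (12.3% and 7.29%). *Pmaip1*, the BH3-only protein Noxa, was at 1.44, 0.647 and 0.936 CPM in control and 2.77, 1.76 and 1.92 CPM in mutant libraries. It rose by 1.13 ± 0.17 (SE, edgeR adjusted p = 0.0133) from a low level and was not called with version in the model (log2 change 1.04, edgeR adjusted p = 0.102). *Bcl2*, which opposes apoptosis, rose by 0.42 ± 0.06 (SE, edgeR adjusted p = 0.014), and *Bbc3*, the BH3-only protein Puma, fell by 0.30 on the log2 scale. *Hrk*, a BH3-only gene named by the study, was at 14.8, 16.7 and 18.49 CPM in control and 27.98, 18.2 and 25.1 CPM in mutant libraries. It was higher in each pair, but mutant 2 was below control 3. The log2 change of 0.50 ± 0.16 (SE) did not pass the edgeR test (edgeR adjusted p = 0.0778), whereas DESeq2 with the pairs called *Hrk* higher. The study reported *Hrk* as higher within intermediate progenitors and migrating neurons-1 of pontine cells, by a test over cells. It also reported *Pak3* and *Dap* as higher in intermediate progenitors, and more TUNEL-positive cells at the lateral rhombic lip. Without TMM scaling, *Pak3* was at 127, 174 and 154 CPM in control and 116, 162 and 124 CPM in mutant libraries, lower in each pair. *Dap* was at 34.0, 25.2 and 26.7 CPM in control and 38.7, 27.2 and 32.7 CPM in mutant libraries, higher in each pair. These sums do not isolate those states.

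None of 20 Hox genes tested was called by edgeR, against 19.6% of all genes, with a median of -0.19, and the anterior and posterior genes behaved differently between libraries. *Hoxa7*, expressed from the spinal cord, was at 64.1 CPM in control 2 and 0.0785 CPM in mutant 2, against 13.6 to 20.6 CPM in the other 4 libraries. *Hoxc8*, without TMM scaling, was at 0.0855, 24.5 and 2.21 CPM in control and 1.66, 0.0124 and 17.8 CPM in mutant libraries. For *Hoxc8*, pair 3 thus differed in the direction opposite to pair 2. Of the 20 genes 18 had a negative log2 change and 2 a positive one, and 3 were lower in all 3 pairs. *Hoxa2*, *Hoxb2* and *Hoxd3*, examples from the hindbrain that do not stand for the list, changed by -0.05 to 0.01. The part of these differences between littermates in the other results was not tested.

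The 12 largest rises among genes with a mean of at least 5 CPM and no overlap were *Rbm47*, *Pifo*, *Ccnd1*, *Pla2g7*, *Dynlrb2*, *Pla2g16*, *Wif1*, *Cfap53*, *Lrriq1*, *Msx1*, *Cyr61* and *Ccdc113*, with log2 changes from 1.48 to 1.72. *Pifo*, *Dynlrb2*, *Cfap53*, *Lrriq1* and *Ccdc113* belong to cilia, *Wif1* binds Wnt ligands and *Cyr61* is a matricellular protein. In all 12 the highest library was mutant 3, and in 7 mutant 3 was more than 2-fold above the next mutant. *Pifo* was at 3.78, 2.96 and 5.204 CPM in control and 7.28, 8.49 and 27.5 CPM in mutant libraries, and its log2 change was 1.63 ± 0.31 (SE, edgeR adjusted p = 0.0308).

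Choroid plexus markers moved with these genes. *Ttr*, the transthyretin of choroid plexus epithelium, was at 1907, 859.95 and 3146 CPM in control libraries and 3408, 2860.0 and 16429 CPM in mutant libraries. *Folr1*, a folate receptor, was at 8.01, 4.71 and 13.3 CPM in control libraries and 14.9, 11.4 and 62.0 CPM in mutant libraries. Each mutant was above its littermate, but control 3 was above mutant 2 for both genes. Of the 4 markers tested 2 were called higher, against 12.3% of all genes, and the list's median was 1.63. Cells with at least 2 of *Kl*, *Folr1*, *Clic6* and *Aqp1*, or with 1% or more of their UMIs from *Ttr*, made up 1.498, 1.05 and 1.62% of control and 2.67, 3.06 and 7.34% of mutant libraries. The genotypes did not overlap, and the two-sided exact permutation p of 0.1 is the smallest possible. Without these cells 2413 genes were called, 1551 higher (11.6%) and 862 lower (6.44%), and 2203 of them were among the 2649. *Rbm47*, *Pifo*, *Cfap53* and *Ccdc113* then had too few UMIs to be tested, and *Lrriq1* changed by 0.27 (edgeR adjusted p = 0.225). *Dynlrb2* still rose by 0.94 (edgeR adjusted p = 0.0161), and *Ccnd1*, *Wif1*, *Msx1*, *Pla2g16* and *Cyr61* rose by 1.44 to 1.64. *Pla2g7* changed by 1.64 and was not called (edgeR adjusted p = 0.0761). The medians of the mitosis, progenitor and neuron differentiation lists were 0.73, 0.82 and -0.29 without these cells.

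Lists of other cells and of cell state were examined in the same sums. Of 20 immediate early and heat shock genes 6 rose and 0 fell, against 12.3% and 7.29% of all genes, with a median of 0.35. With version in the model 2 rose, against 6.59% of all genes. *Egr1*, induced by many stimuli, was at 52.6, 21.3 and 29.9 CPM in control and 87.9, 51.2 and 59.0 CPM in mutant libraries, a log2 change of 0.99. *Ier2*, *Atf3*, *Junb*, *Fos* and *Jun* were called as well, all higher. The part of these genes in the other results was not tested.

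None of 6 red blood cell genes, 7 microglia genes and 8 genes of pericytes and meninges was called by edgeR, where 12.3% of all genes were higher and 7.29% lower. Their median log2 changes were -0.99, -1.07 and -0.32, respectively. All 7 microglia genes had a negative change, and 5 were lower in all 3 pairs. Of 3 endothelial genes *Kdr*, a VEGF receptor, rose by 1.00. Among glial markers, *Olig1* fell by 0.69 on the log2 scale and was the 1 called of 4 oligodendrocyte genes, and of 3 astrocyte genes *Gja1* rose by 0.61 and *Slc1a2* fell by 0.27. Of 13 mitochondrially encoded genes *mt-Atp6* fell by 0.29, and 0 of 6 sex-linked genes were called. Of 76 ribosomal protein genes *Rps27l*, the 1 called, rose by 0.30. A positive change was seen in 75 of the 76, with a median of 0.09.

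The 12 largest falls were *Calb2*, *Tbr1*, *Rab15*, *Crtac1*, *Tspan17*, *Pcp4*, *Cst6*, *Resp18*, *Crlf2*, *Ckmt1*, *Vstm2l* and *Faim2*, with log2 changes from -1.37 to -0.64. With version in the model 5 of the 12 were called (*Tbr1*, *Rab15*, *Pcp4*, *Cst6* and *Resp18*). *Calb2*, the calcium-binding protein calretinin, was at 68.3, 54.8 and 102 CPM in control and 41.0, 16.7 and 32.4 CPM in mutant libraries. It fell 2.58-fold (log2 change -1.37 ± 0.23 SE, edgeR adjusted p = 0.0285) and was not called with version in the model (log2 change -1.65, edgeR adjusted p = 0.288). *Resp18*, of the neuroendocrine secretory pathway, was at 92.8, 113 and 96.4 CPM in control and 62.8, 68.9 and 57.8 CPM in mutant libraries and fell by 0.67 ± 0.05 (SE, edgeR adjusted p = 0.00582) on the log2 scale. *Ckmt1*, a mitochondrial creatine kinase, and *Faim2*, a neuronal inhibitor of Fas signaling, fell by 0.66 and 0.64 on that scale.

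The sums were then repeated over subsets of the cells. Without any cell that held a UMI of the 6 division genes, 89 of 13235 genes (0.672%) were called by edgeR, 78 higher (0.589%) and 11 lower (0.0831%), with 3213 at an unadjusted p below 0.05, and 87 of the 89 were among the 2649. Such cells were numerous, and 4257 to 6802 cells per library remained. *Rab15*, *Pcp4*, *Tbr1* and *Resp18* were still called lower, by -0.80, -0.59, -1.12 and -0.44, and *Ccnd1*, *Notch1*, *Pax3*, *Wnt1* and *Msx1* higher, by 1.21, 1.42, 1.05, 1.77 and 1.75. The neuron differentiation list had 0 of its 36 genes called by edgeR in these sums, with a median of -0.16. The progenitor list had 4 called higher with a median of 0.68, the roof plate list 7 with 0.69, and the Notch list 2 with 0.31. The S phase list had 3 called higher with a median of 0.24, among them *Mcm2* and *Mcm3*, by 0.57 and 0.85. The 6 genes all belong to the G2 and mitosis list, so cells in S phase can remain.

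In cells with 3 or more *Mapt* UMIs, 4438 to 7307 per library, 1 gene (0.00762%) was called by edgeR, with 2546 at an unadjusted p below 0.05. It was *Hist1h1b*, a histone H1 of dividing cells (log2 change 0.95 ± 0.05 SE, edgeR adjusted p = 0.0189). *Tbr1* and *Pcp4* had log2 changes of -1.06 and -0.55 there (edgeR adjusted p = 0.0514 and 0.052), and *Atoh1* had 0.62 (edgeR adjusted p = 0.0598). *Rab15* changed by -0.48 (edgeR adjusted p = 0.16). The median of the neuron differentiation list was -0.08, and that of the mitosis list was 0.45. *Mapt* is itself a called gene, so this subset was defined by a value that differed between genotypes.

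**Figure D5:**
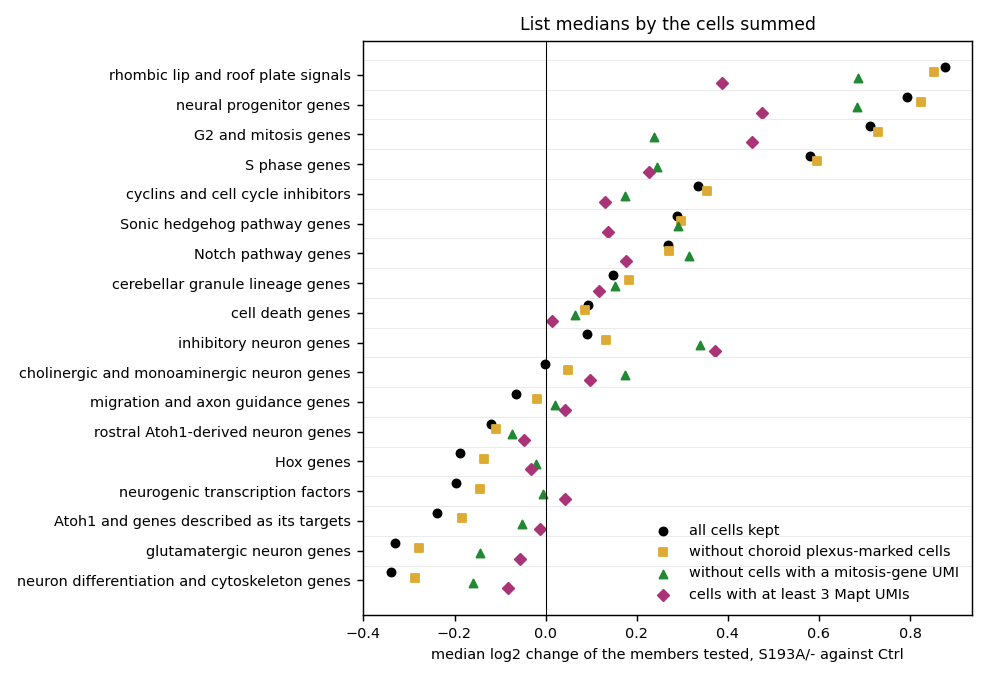
Median log2 change of the members tested (x axis) of each gene list (rows) in the sums over all cells kept (black), without choroid plexus-marked cells (yellow), without cells holding a UMI of 6 mitosis genes (green) and over cells with at least 3 *Mapt* UMIs (purple). Black and yellow lie close together in most lists, and the mitosis list falls from 0.71 over all cells to 0.45 over *Mapt* cells.

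The same contrast at E18.5, which shares no library with E14.5 and whose 6 libraries all carry version 5.0.1, called 63 of 13318 genes (0.473%), 28 higher (0.21%) and 35 lower (0.263%). *Rab15* was called there as well, at 23.4 CPM in control and 13.1 CPM in mutant libraries (means of 3; log2 change -0.86 ± 0.09 SE, edgeR adjusted p = 0.0288). *Barhl1* fell by 0.31 ± 0.04 (SE, edgeR adjusted p = 0.0213) on the log2 scale at E18.5. At E14.5, where edgeR did not call it, its log2 change was -0.38. The difference between the stages (-0.10) did not pass the interaction test (edgeR adjusted p = 0.609). *Ccnd1*, at 141 and 151 CPM, changed by 0.10 ± 0.04 (SE, edgeR adjusted p = 0.474), *Mki67* by 0.01 ± 0.05 and *Mapt* by 0.01 ± 0.04 (SE). Tested as an interaction of genotype and stage over the 12 libraries, 3102 of 14021 genes (22.1%) differed between the stages by edgeR. Without pair 3 of E14.5 the number was 1587, and without the pairs in the model it was 0, with 1820 at an unadjusted p below 0.05. DESeq2 with the pairs gave 3291.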

How the data were processed

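Sorted cells were captured on the Chromium platform (3′ chemistry v3.1), and the authors aligned reads to mm10 with WPRE added and quantified UMIs with Cell Ranger. The submitters' notes name version 5.0.1. The authors deposited raw UMI counts for 31054 genes in each barcode. The filter of less than 1% mitochondrial UMIs named in the methods was not applied, and doublets were not removed. Here counts were summed per library over cells with at least 1000 genes and under 10% mitochondrial UMIs. Genes with a CPM of at least 1 in at least 3 of 6 libraries were tested by edgeR 4.0.16 (R 4.3.3; TMM, robust quasi-likelihood F test, Benjamini-Hochberg adjustment), with the replicate number as a block. DESeq2 1.42.0 was an alternative. SEs are the log2 change divided by the square root of F. Same-numbered libraries were treated as littermates, as the labels give replicate numbers only. Their deviations from genotype means correlated at 0.557, 0.759 and 0.596 (other combinations -0.568 to 0.174). Centring within each genotype lowers the other combinations, and libraries processed together could correlate alike, so these values do not establish the pairs. CPM values per gene are TMM-scaled unless stated otherwise, and sums over marker lists and *Xist* are not. The fits were tested on simulated data. 

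The members, the 18 gene lists and 11 marker lists were chosen with earlier results of these data known. Named were 14 genes of interest, the 12 largest rises and falls among called genes with a mean of at least 5 CPM, no overlap and 1 direction in all 3 pairs, and the 2 called members of each list with the smallest adjusted p, without mitochondrial, sex-linked and unnamed genes. Other genes named were chosen after their values were seen, as were the subsets by choroid plexus markers and *Mapt*. Gene positions come from GENCODE M21 (GRCm38), which matched 13532 of 13544 genes by ID. Promoters are from RefSeq GRCm38.p6. Some genes that the rule names are not reported here.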

Additional observations from a re-analysis of the deposited data

Results flagged for a closer look

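The log2 change between genotypes differed between E14.5 and E18.5 for 37 of the 58 named genes, by an interaction term in edgeR with the pairs as blocks, against 22.1% of all genes. Most of these genes were named for their change at E14.5, which the interaction uses again, so the count is a description and the choice favours a difference. Each value is the change at E14.5 minus that at E18.5. Among cell cycle genes it was 1.47 for *Ccnd1*, 0.79 for *Mki67*, 0.83 for *Mcm2*, 0.85 for *Mcm3*, 0.85 for *Bub1b*, 0.75 for *Cenpf* and 0.91 for *Cdk2*. In the Notch pathway it was 1.08 for *Notch1*, 1.22 for *Notch2*, 0.66 for *Dll1*, 1.58 for *Hes1* and 0.97 for *Hes5*. Other progenitor and signaling genes had 0.97 (*Pax3*), 1.19 (*Gli3*), 1.45 (*Cdon*), 0.78 (*Lef1*), 0.22 (*Zic5*), 0.93 (*Slit2*), 1.68 (*Cyr61*), 1.00 (*Pmaip1*) and 0.42 (*Bcl2*). The cilia genes *Cfap53* and *Lrriq1* had 1.61 and 1.59. *Cdon* is the one of these whose change was called in both stages, with a rise at E14.5 and a log2 change of -0.42 ± 0.06 (SE, edgeR adjusted p = 0.0365) at E18.5.

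Among genes that fell at E14.5 the difference was -1.53 for *Calb2*, -1.24 for *Tbr1*, -0.50 for *Mapt*, -0.48 for *Tubb3*, -0.33 for *Snap25*, -0.37 for *Ebf1* and -0.33 for *Robo2*. It was -0.50 for *Tspan17*, -0.62 for *Cst6*, -0.56 for *Resp18*, -0.68 for *Crlf2*, -0.59 for *Ckmt1*, -0.74 for *Vstm2l* and -0.63 for *Faim2*. For *Rab15* it was -0.19 and did not pass the test (edgeR adjusted p = 0.292). None of these differences passed without the pairs in the model. Their number over all genes fell from 3102 to 1587 without pair 3 of E14.5.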

How the results depend on the processing

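The 2649 calls at E14.5 (1662 higher, 987 lower) varied most with the pairs, the version and the cells summed. Without the replicate block they were 4 (3 and 1). They were 1250 (892 and 358) with version as a covariate and 1 (1 and 0) in cells with 3 or more *Mapt* UMIs. Without cells holding a UMI of the 6 division genes they were 89 (78 and 11). Of the 2649 calls, 2398 were tested there and 2377 kept their direction. Leaving out a pair gave 1303 to 1503 calls (785 to 1035 higher, 418 to 648 lower), with 1433 without pair 1, 1303 without pair 2 and 1503 without pair 3. Leaving out 1 library, without the block, gave 0 to 18 (0 to 17 and 0 to 1), with 1397 to 3381 genes at an unadjusted p below 0.05, and 18 without mutant library 2. DESeq2 with the pairs gave 2958, and other scalings, filters, thinning, all barcodes, no robust moderation and no limit on the fold gave 2127 to 3451. Stage differences were 3102, from 1587 (without pair 3) to 3335 when a pair was left out, and 0 without the replicate block. The difference in the dividing share of 6.95 points was 9.68 with 1 of 6 genes and 9.86 unthinned, and 6.10 to 8.43 without a pair. The filter left out genes below 1 CPM, and without it 3084 were called. The causes were not tested.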
